A study of Mus musculus with 6 samples.

Results

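Klf4, Nr4a3, Gem, Trp53inp1, Pnrc1 and Asns are 6 of the 53546 gene features counted in RNA sequencing libraries from C57BL/6 mice, and they were taken by name as genes of the stress and immediate response. Of the 6 names, 5 are feature names as they stand and the sixth, Tp53inp1, is listed under its mouse symbol Trp53inp1. The 3 injury libraries are labelled spinal cord injury and the 3 control libraries carry the label control. No genetic modification, age, sex or time after injury is given for the samples, the tissue label names both spinal cord and the disc between vertebrae, and the text of the series also speaks of retina and of mice 21 days old. Separate animals are not named for the libraries, and the p-values given here therefore measure only the spread among these 6 libraries, which could be technical.

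The immediate response is the first wave of transcription after a stimulus. Its genes need no new protein to be switched on, and many encode transcription factors that set off a later wave. Klf4 is a zinc finger transcription factor of epithelia, endothelium and stem cells that is also induced by serum and by stress, and Nr4a3 is an orphan nuclear receptor induced through cyclic AMP and calcium. Gem is a small GTP-binding protein of the RGK family that restrains voltage-gated calcium channels. Trp53inp1 is induced by p53 during stress and acts in autophagy and cell death, and Pnrc1 is a proline-rich coactivator of nuclear receptors. Asns makes asparagine, and it is a standard target of ATF4, the transcription factor of the amino acid and integrated stress response. In spinal cord tissue such genes are known to respond to injury, to ischaemia and to the handling of the tissue itself.

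Promoter sequences were available for 4 of the 6 genes. They are RefSeq windows on GRCm38.p6 that run from 250 bases before to 50 bases after the annotated start, and 3 are shown because each carries at least 1 match to a short element searched for in all windows. For Asns (chr6:7693160-7693459, minus strand) capitals mark the C/EBP-ATF response element, searched as TGATGNAAN on both strands. For Nr4a3 (chr4:48045055-48045354, plus strand) they mark the core of the cyclic AMP response element, TGACG on either strand. For Klf4 (chr4:55532426-55532725, minus strand) they mark the GC box, GGGCGG on either strand, to which factors of the SP and KLF families bind; here 2 of the matches lie only 5 bases apart and share a base.
Asns: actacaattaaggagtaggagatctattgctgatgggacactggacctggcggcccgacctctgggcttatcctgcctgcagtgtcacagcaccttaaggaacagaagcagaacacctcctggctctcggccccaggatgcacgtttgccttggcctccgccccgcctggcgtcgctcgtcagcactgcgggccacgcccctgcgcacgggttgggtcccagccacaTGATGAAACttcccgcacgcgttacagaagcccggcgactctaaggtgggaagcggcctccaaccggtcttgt
Nr4a3: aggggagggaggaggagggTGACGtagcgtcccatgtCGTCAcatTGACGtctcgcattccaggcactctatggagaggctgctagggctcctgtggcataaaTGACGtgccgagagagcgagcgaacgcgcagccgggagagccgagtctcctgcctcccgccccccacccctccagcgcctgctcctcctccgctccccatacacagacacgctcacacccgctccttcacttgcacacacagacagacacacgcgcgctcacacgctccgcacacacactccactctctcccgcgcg
Klf4: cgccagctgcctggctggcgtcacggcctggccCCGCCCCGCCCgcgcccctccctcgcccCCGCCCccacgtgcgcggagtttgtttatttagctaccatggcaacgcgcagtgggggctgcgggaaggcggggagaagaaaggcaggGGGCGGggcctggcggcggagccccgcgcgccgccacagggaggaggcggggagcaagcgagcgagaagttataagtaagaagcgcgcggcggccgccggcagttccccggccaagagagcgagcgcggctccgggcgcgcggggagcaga

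Asns held 1 match of the response element, TGATGAAAC, whose first base lies at -23 from the annotated start. A match to TGATGNAAN stands in 3.95% of the 32851 promoter windows of this length. Nr4a3 held 4 such cores, at -231, -213, -205 and -147, the second of them on the minus strand, where 20.8% of windows hold at least 1 and 1.03% hold 3 or more. Klf4 held 4 GC boxes, where 35.7% of windows hold at least 1 and 10.7% hold 3 or more. Each sequence is marked for 1 element only, and other matches are left in small letters. The cyclic AMP core also stood once in Klf4, at -232, and once in Asns, at -73. A GC box stood at -91 in Nr4a3 and at -93 in Asns. The window of Pnrc1 held none of these letters. A match describes the sequence and is not a measure of binding.

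All 6 features lie where the name can be taken as it stands. In these files many feature coordinates fall on exons of another gene in GRCm38, and a feature is called name-stable here where 90% or more of its exonic length overlaps GRCm38 exons carrying its own name, which 1740 features do. For the 6 genes that share is 100%, start and end equal those of GENCODE M21 on GRCm38, and no exonic base is shared with another feature. Klf4 spans chromosome 4 from 55527143 to 55532466, Nr4a3 48045153 to 48086447, Gem 11704457 to 11714752, Trp53inp1 11156431 to 11174379 and Pnrc1 33245423 to 33290163, and Asns spans chromosome 6 from 7675169 to 7693254. Counts are read pairs on exons, untranslated regions included.

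Total counts were 2385703 to 2905828 in the injury libraries and 2615213 to 3921627 in the control libraries, and 6.60% to 10.9% of them lay on name-stable features. The control libraries are not alike. The most abundant feature held 21.8% and 17.2% of the counts in controls 1 and 2, which lowers the CPM of all other features there. In control 3 the most abundant feature held 5.1%, and in the injury libraries 4.43% to 5.41%. Levels are in CPM, a count divided by the total count of its library and multiplied by 1000000. CPM summed over 9 nervous tissue genes that include Ptprz1, Gpr37 and Penk were 5959 to 6304 in the injury libraries and 5768 in control 3, against 19.8 and 25.8 in controls 1 and 2. Over 7 genes of transporting epithelia that include Slc13a1, Aqp3 and Slc7a13 the sums were 13.0 to 14.7 CPM in the injury libraries and 15.7 CPM in control 3, against 2413 and 1776 CPM in controls 1 and 2. Aqp3 and Slc7a13 had no count in control 3 and the injury libraries, and Pou3f2, a neural transcription factor, had none in controls 1 and 2. Controls 1 and 2 thus hold little of the neural RNA that spinal cord tissue should contain, and every mean over the 3 controls mixes unlike libraries. In bulk libraries fewer cells of a type and less RNA per cell cannot be told apart.

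The first question is how these genes stand after spinal cord injury. Over all 6 libraries none of the 6 genes was called, and Nr4a3 and Asns had higher CPM in every injury library than in every control library. Nr4a3 had 26.5, 24.9 and 28.5 CPM in injury 1, 2 and 3, against 19.5, 15.6 and 18.0 CPM in controls 1, 2 and 3. Its 6 values lie close together and the groups do not overlap, with means of 26.6 ± 1.79 CPM after injury and 17.7 ± 1.99 CPM in control (SD, n = 3 each). These are 68 to 77 counts per injury library and 47 to 76 counts per control library, so the exact Poisson 95% intervals of single libraries are wide, 20.9 to 33.1 CPM in injury 1 and 13.2 to 23.9 CPM in control 3, and they cover counting error only. The log2 fold change of injury over control was 0.72 (SE 0.37, adjusted p = 0.252, edgeR quasi-likelihood test with Benjamini-Hochberg adjustment).

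The Nr4a3 difference depends on what the counts are scaled to. With TMM scaling over all features the groups stayed apart, at 27.1 to 32.0 CPM after injury and 11.4 to 21.5 CPM in control. RLE scaling kept them apart too, at 27.8 to 33.3 CPM and 10.6 to 21.4 CPM. The log2 fold change was 0.79 with RLE scaling and 0.52 on library totals. Of the 455 name-stable features tested 24.4% had all 3 injury libraries above all 3 controls, against 13.7% of all 12646 features tested. Scaled to each library's counts on name-stable features, Nr4a3 had 268, 229 and 275 counts per 1000000 name-stable counts in the injury libraries, against 241, 236 and 186 in the controls, and the groups then overlap. With scaling factors estimated on name-stable features, a choice made after seeing the data, its log2 fold change was -0.02. In the 6-library fit the median log2 fold change was -0.04 over all features and 0.62 over name-stable features.

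**Figure D1:**
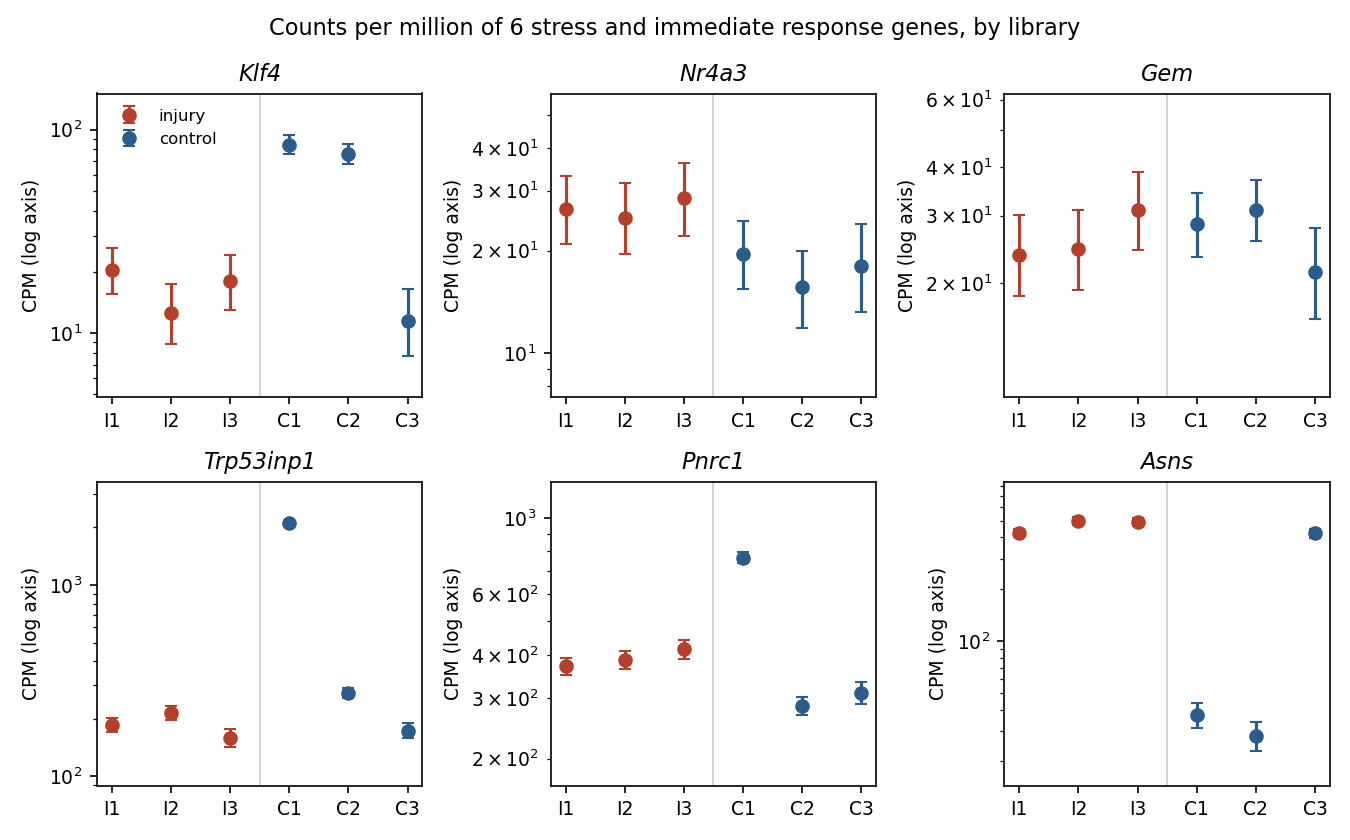
CPM of the 6 genes in injury 1 to 3 (I1 to I3) and controls 1 to 3 (C1 to C3) on log axes, each panel with its own range; points are libraries and bars exact Poisson 95% intervals of the count (counting error only). Klf4 stood at 84.4 and 76.2 CPM in controls 1 and 2 and Asns at 37.2 and 28.0 CPM there, with the other 4 libraries at 11.5 to 20.3 CPM for Klf4 and 424 to 498 CPM for Asns.

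Asns had 425, 498 and 493 CPM in injury 1, 2 and 3, against 37.2, 28.0 and 424 CPM in controls 1, 2 and 3. Control 3 and injury 1 hold the same level within counting error, and controls 1 and 2 stand far below all other libraries. The mean was 472 ± 40.8 CPM after injury and 163 ± 226 CPM in control (SD, n = 3 each), with a log2 fold change of 1.68 (SE 1.07, edgeR adjusted p = 0.320). Scaled to name-stable counts, the injury libraries held 4298 to 4753 counts of Asns per 1000000, and control 3, at 4377, lay within that range. Asns had controls 1 and 2 both below the other 4 libraries in CPM, as did 56.3% of name-stable features and 34.1% of all features.

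Klf4 ran the other way. It had 20.3, 12.6 and 18.0 CPM in injury 1, 2 and 3, against 84.4, 76.2 and 11.5 CPM in controls 1, 2 and 3. Controls 1 and 2 are high, control 3 is the lowest of the 6 libraries, and the groups overlap. The mean was 17.0 ± 3.93 CPM after injury and 57.4 ± 40.0 CPM in control (SD, n = 3 each), with a log2 fold change of -1.63 (SE 0.74, edgeR adjusted p = 0.220). Controls 1 and 2 both lay above the other 4 libraries for Klf4 and Trp53inp1, as for 17.8% of name-stable features and 35.3% of all features.

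Trp53inp1 and Pnrc1 were highest in a single library, control 1. Trp53inp1 had 186, 215 and 159 CPM in the injury libraries, against 2115, 272 and 173 CPM in controls 1, 2 and 3. Control 1 alone carries the control mean of 853 ± 1094 CPM, and the injury mean was 187 ± 28.0 CPM (SD, n = 3 each). The log2 fold change was -2.24 (SE 1.10, edgeR adjusted p = 0.240) and without control 1 it was 0.05. Pnrc1 had 371, 386 and 415 CPM in the injury libraries, against 766, 284 and 310 CPM in the controls. Its injury libraries lie between control 1 above and controls 2 and 3 below. The log2 fold change was -0.17 (SE 0.60, edgeR adjusted p = 0.860), and without control 1 it was 0.66.

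Gem varied least of the 6 genes. It had 23.7, 24.6 and 31.0 CPM in the injury libraries, against 28.5, 31.1 and 21.4 CPM in controls 1, 2 and 3, and the groups overlap. The mean was 26.4 ± 3.98 CPM after injury and 27.0 ± 5.02 CPM in control (SD, n = 3 each), and the log2 fold change was 0.13 (SE 0.35, edgeR adjusted p = 0.815). The test over all 6 libraries called 0.00% of 12646 features in either direction, with 3245 features at an unadjusted p under 0.05, and DESeq2 called 1503 features but none of the 6 genes; it gave Trp53inp1 no p.

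Levels can be compared between genes per kilobase of exon. In this unit, CPM per kilobase, Pnrc1 averaged 186 in the injury libraries and Asns 173, and their ranges overlap (177 to 198 and 156 to 182). Trp53inp1 followed at 28.8 and Gem at 12.6, each clear of its neighbours in every injury library. Klf4 averaged 5.57 and Nr4a3 4.45, with overlapping ranges. Control 3 kept much of this order, with Asns at 155 and Pnrc1 at 148 CPM per kilobase, a difference within counting error. In control 1 the order was Pnrc1 at 366, Trp53inp1 at 327, Klf4 at 27.7, Asns at 13.6, Gem at 13.5 and Nr4a3 at 3.26 CPM per kilobase. Asns was thus second of the 6 genes in all 3 injury libraries, first in control 3 and behind Klf4 in controls 1 and 2.

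Control 3 set alone against injury 1, 2 and 3 compares libraries that all hold the neural genes. Here every one of the 6 genes had a log2 fold change above 0 and none was called. Nr4a3 and Klf4 had the largest values, 0.68 each (SE 0.28 and 0.35, edgeR adjusted p = 0.132 and 0.221). Pnrc1, at 371 to 415 CPM after injury against 310 CPM in control 3, had 0.45 (SE 0.17, adjusted p = 0.0999), and its exact Poisson 95% intervals were 349 to 393 CPM in injury 1 and 289 to 333 CPM in control 3. Gem had 0.42 (SE 0.28, adjusted p = 0.354), Asns 0.28 (SE 0.17, adjusted p = 0.306) and Trp53inp1 0.23 (SE 0.18, adjusted p = 0.429). The fit takes the spread of the injury libraries for the single control as well.

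The sign that all 6 genes shared was that of most name-stable features, but not of most features. In this fit Trp53inp1, the lowest of the 6, had a higher log2 fold change than 71.6% of all features tested. Klf4 and Nr4a3 were each higher than 95.7% of them. Of 476 name-stable features tested with control 3 as the only control, 74.2% had a log2 fold change above 0, with a median of 0.18, against 48.2% and a median of -0.03 over all 13857 features. The median of the 6 genes was 0.44. This test called 1.05% of all features higher and 5.72% lower after injury, and 1.26% and 0.840% of the name-stable ones. In CPM, 5 of the 6 genes, all but Trp53inp1, had every injury library above control 3, where 34.5% of name-stable features and 21.2% of all features did. With TMM or RLE scaling all 6 genes did, and scaled to name-stable counts 3 did, namely Nr4a3, Gem and Pnrc1. Among the 5 genes in CPM, only Pnrc1 had Poisson 95% intervals that did not overlap between control 3 and the lowest injury library. Asns stood at 425 CPM in injury 1 against 424 CPM in control 3, and Klf4 at 12.6 CPM in injury 2 against 11.5 CPM. The 5 leukocyte genes summed to 131, 94.5 and 64.1 CPM in injury 1, 2 and 3 and to 68.4 CPM in control 3. Of these sums Lyn alone made up 103, 71.3, 48.2 and 47.0 CPM. Pax5, of the same list, ran otherwise, at 5.51, 5.27 and 7.96 CPM after injury and 6.12 CPM in control 3. What leukocyte RNA adds to the values of the 6 genes was not tested.

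With control 3 as the only control, DESeq2 gave no adjusted p for Klf4, Nr4a3 and Gem. Among the members Pnrc1 was the closest to a call in this comparison. Its adjusted p was 0.0440 with DESeq2, 0.0228 with edgeR and no filter beyond 1 count, and 0.0102 without injury 1, and with scaling on name-stable features it was 0.267 at a log2 fold change of 0.27. Asns passed only without injury 1 among the alternatives run (log2 fold change 0.37, adjusted p = 0.0381).

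Controls 1 and 2 set against the 3 injury libraries, the fit that leaves out control 3, called 4 of the 6 genes. Klf4 fell (log2 fold change -1.80, SE 0.33, edgeR adjusted p = 0.00349) and so did Trp53inp1 (-2.42, SE 0.84, adjusted p = 0.0387). Asns rose (4.28, SE 0.40, adjusted p = 3.85e-04) and so did Nr4a3 (1.04, SE 0.35, adjusted p = 0.0356). Gem (0.30, adjusted p = 0.390) and Pnrc1 (-0.09, adjusted p = 0.894) did not pass. The same fit called 53.1% of 510 name-stable features higher and 19.0% lower, and 30.2% and 36.6% of all 15320 features, so 2 genes called in each direction is near the background. The summed nervous tissue and epithelial genes given above differ between the same libraries, and their part in these 4 calls was not tested. This fit shares its injury libraries with the comparison against control 3.

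**Figure D2:**
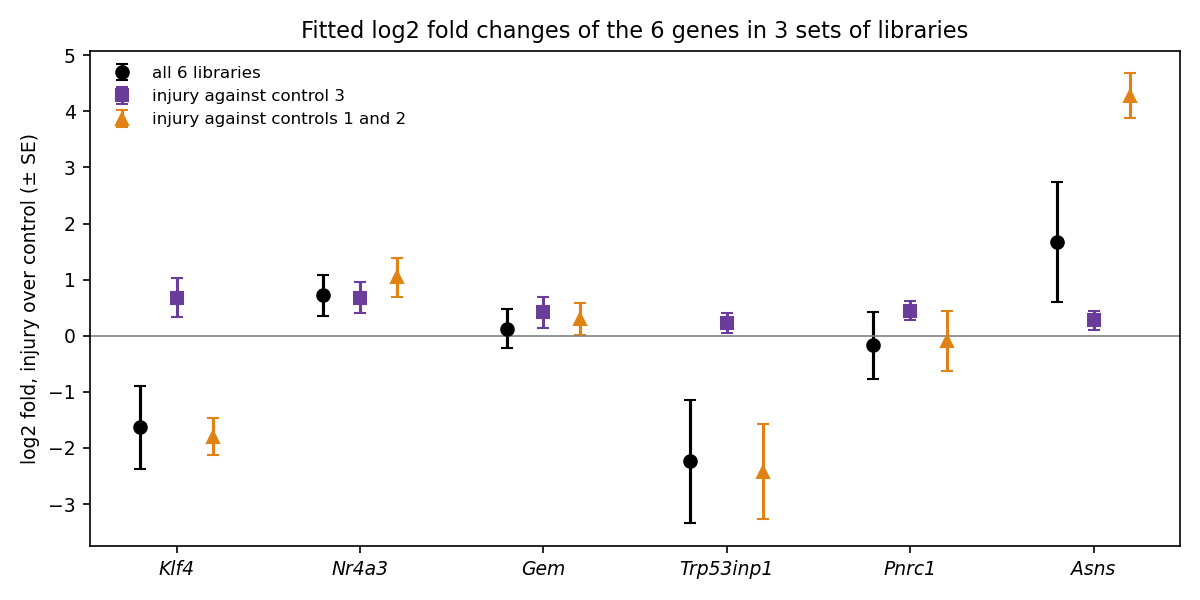
Fitted log2 fold change of injury over control for each of the 6 genes with all 6 libraries (circles), with control 3 as the only control (squares) and with controls 1 and 2 as the controls (triangles); bars are ± 1 SE. Klf4 and Trp53inp1 lie below 0 with controls 1 and 2 and above 0 with control 3. Nr4a3, Gem and Asns lie above 0 in each set. All fits share the injury libraries.

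Controls 1 and 2 carry the same label and were set against each other without a test, since each side is 1 library. A ratio of more than 2 in either direction was used as the mark, on CPM, for features with at least 20 counts in both libraries together. Trp53inp1 was 7.79 times as high in control 1 as in control 2 (exact 95% interval 7.31 to 8.31, counting error only), with 2115 CPM in control 1 and 272 CPM in control 2. Pnrc1 was 2.70 times as high (2.52 to 2.90), with 766 CPM in control 1 and 284 CPM in control 2. Only 7.87% of 521 name-stable features were more than 2-fold higher in control 1 (6.42% of 16726 features), and 37.2% were more than 2-fold lower (40.2% of all features). Trp53inp1 ranked behind 9 name-stable features by this ratio and Pnrc1 behind 21. Summed marker genes differ between these 2 libraries too. Control 1 had 62.4 and control 2 had 1226 CPM of disc and matrix genes, of which Col15a1 made up 1151 CPM in control 2. Muscle genes stood at 46.7 and 232 CPM, leukocyte genes at 290 and 546 CPM, and epithelial genes at 2413 and 1776 CPM. Nervous tissue genes stood at 19.8 and 25.8 CPM. What these differences add to the ratios of single genes was not tested.

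The other 4 genes differed by less than 2-fold between these 2 libraries. The ratio of control 1 to control 2 was 1.11 for Klf4 (0.944 to 1.30), 1.25 for Nr4a3 (0.884 to 1.79), 0.916 for Gem (0.702 to 1.19) and 1.33 for Asns (1.03 to 1.72). The interval of Asns lies above 1 and those of Klf4, Nr4a3 and Gem include it. The median log2 ratio was -0.57 over name-stable features on library totals and 0.08 with TMM scaling, which moves every gene by the same amount. On the TMM scale the log2 ratios were 3.61 for Trp53inp1, 2.09 for Pnrc1, 1.06 for Asns, 0.98 for Nr4a3, 0.80 for Klf4 and 0.53 for Gem. Asns too is past 2-fold there, and Gem, lower in control 1 on library totals, is higher. More features pass on that scale: 2561 of 16726 were more than 2-fold higher in control 1, against 1073 on library totals. Lower in control 1 were 4059, against 6717.

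Pdk4, which holds back the pyruvate dehydrogenase complex and is known to be induced by fasting and by glucocorticoids, stood apart further. It had 85.0, 101 and 93.9 CPM in the injury libraries, against 10104, 183 and 92.2 CPM in controls 1, 2 and 3. Control 1 was 55.1 times as high as control 2 (51.2 to 59.4), and control 3 lay within the range of the injury libraries.

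**Figure D3:**
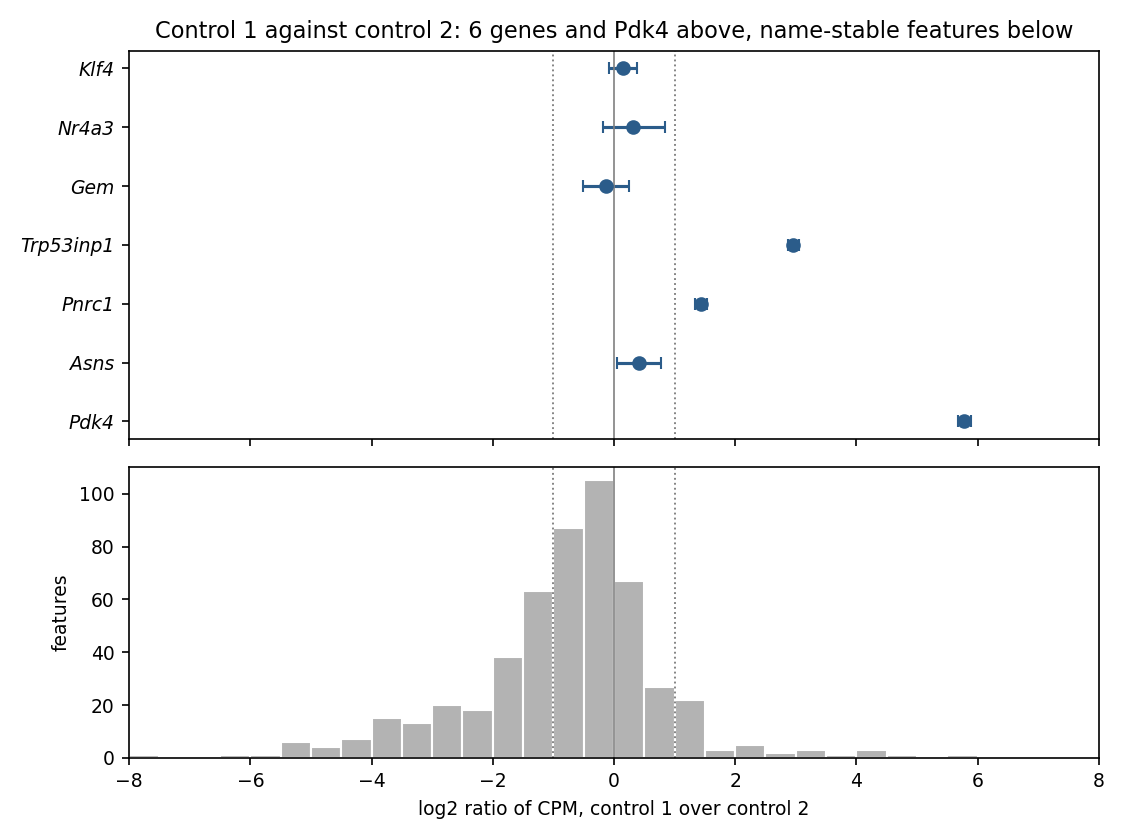
Log2 ratio of CPM, control 1 over control 2, for the 6 genes and Pdk4 with exact 95% intervals (upper panel), and the number of name-stable features per 0.5 units of log2 ratio, leaving out features with no count in one of the libraries (lower panel); dotted lines mark 2-fold. Trp53inp1, Pnrc1 and Pdk4 lie beyond 2-fold higher in control 1, while the median name-stable feature lies at -0.57.

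Other genes of the same responses were read from 5 lists, of which 32 members are name-stable and had at least 20 counts. In the immediate early list 5 of 36 symbols could be read, among them Crem, whose short form ICER represses cyclic AMP targets, and Map3k8, a kinase upstream of ERK. Crem had 58.5, 81.8 and 73.8 CPM after injury, against 124, 63.7 and 68.8 CPM in controls 1, 2 and 3, so control 1 alone stands out. Map3k8 had 11.4, 10.9 and 7.13 CPM after injury, against 82.9, 119 and 11.1 CPM in the controls, and only controls 1 and 2 are high. Map3k8 is also 1 of the 5 leukocyte genes. With Map3k8 included, these summed to 64.1 to 131 CPM after injury, against 290, 546 and 68.4 CPM in controls 1, 2 and 3. Tfec was at 0 outside controls 1 and 2. Pax5 ran the other way, at 5.27 to 7.96 CPM after injury, against 1.28, 3.31 and 6.12 CPM in controls 1, 2 and 3. The part of leukocyte RNA in the values of Crem and Map3k8 was not tested. With control 3 as the only control 0 of the 5 genes were called (median log2 fold change 0.42), and with controls 1 and 2 Nr4a3 rose and Klf4 and Map3k8 fell, 1 and 2 of 5 genes where the fit called 30.2% of all features higher and 36.6% lower.

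In the amino acid and integrated stress response list 3 of 25 symbols could be read, and all 3 rose against controls 1 and 2, as did 53.1% of name-stable features and 30.2% of all features. Beside Asns these are Rragd, a GTPase that signals amino acid supply to mTORC1 (log2 fold change 1.89, SE 0.25, edgeR adjusted p = 0.00115), and Mios, a subunit of the GATOR2 complex of the same pathway (1.29, SE 0.27, adjusted p = 0.00547). Against control 3 none was called, with a median log2 fold change of 0.27. Rragd had 393, 434 and 437 CPM after injury, against 144, 175 and 380 CPM in controls 1, 2 and 3. Control 3 lies just under the injury libraries, as for Asns. Trp53inp1 was the one name-stable gene of the p53 list.

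The protein folding and endoplasmic reticulum stress list had 11 readable genes of 24, and all 11 rose against controls 1 and 2, where 53.1% of name-stable features and 30.2% of all features did. The median log2 fold change was 1.65, against 1.04 over name-stable features. In the same fit all 9 nervous tissue genes rose (median log2 fold change 8.54) and 6 of the 7 epithelial genes fell, and their part in the counts of these lists was not tested. Ube2j1, a ubiquitin-conjugating enzyme of the endoplasmic reticulum, had 845, 1077 and 1017 CPM after injury, against 175, 161 and 892 CPM in controls 1, 2 and 3. Dnaja1, a cochaperone of Hsp70, had 1128, 1339 and 1255 CPM after injury, against 493, 314 and 1204 CPM in the controls. Both genes were low in controls 1 and 2, and control 3 lay within the range of the injury libraries.

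Against control 3, 1 of these 11 genes was called higher, where the fit called 1.05% of all features and 1.26% of name-stable features higher. That gene was Bag1, a cochaperone of Hsp70 (log2 fold change 0.59, SE 0.17). It had 364, 410 and 402 CPM after injury, against 284 CPM in control 3 and 275 and 162 CPM in controls 1 and 2. The call rests on a single control library, and how it held under other scalings is not given here. The list's median log2 fold change there was 0.27, against 0.18 over name-stable features.

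In the list of stress kinase, DNA damage and growth arrest genes 12 of 20 symbols could be read. Against control 3 none was called (median log2 fold change 0.14), and against controls 1 and 2 there were 5 that rose and 2 that fell, near the shares of name-stable features called higher (53.1%) and lower (19.0%) in that fit. The 2 that fell were Pdk4 (-5.57, SE 1.44, edgeR adjusted p = 0.0133), which had 10104 CPM in control 1 and 183 CPM in control 2, and Met, the receptor of hepatocyte growth factor (-2.83, SE 0.26, adjusted p = 3.56e-04). Met had 59.5, 67.1 and 47.8 CPM after injury, against 545, 605 and 64.6 CPM in controls 1, 2 and 3. Rad23b, which escorts damaged DNA and ubiquitinated proteins, rose (1.90, SE 0.35, adjusted p = 0.00390).

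**Figure D4:**
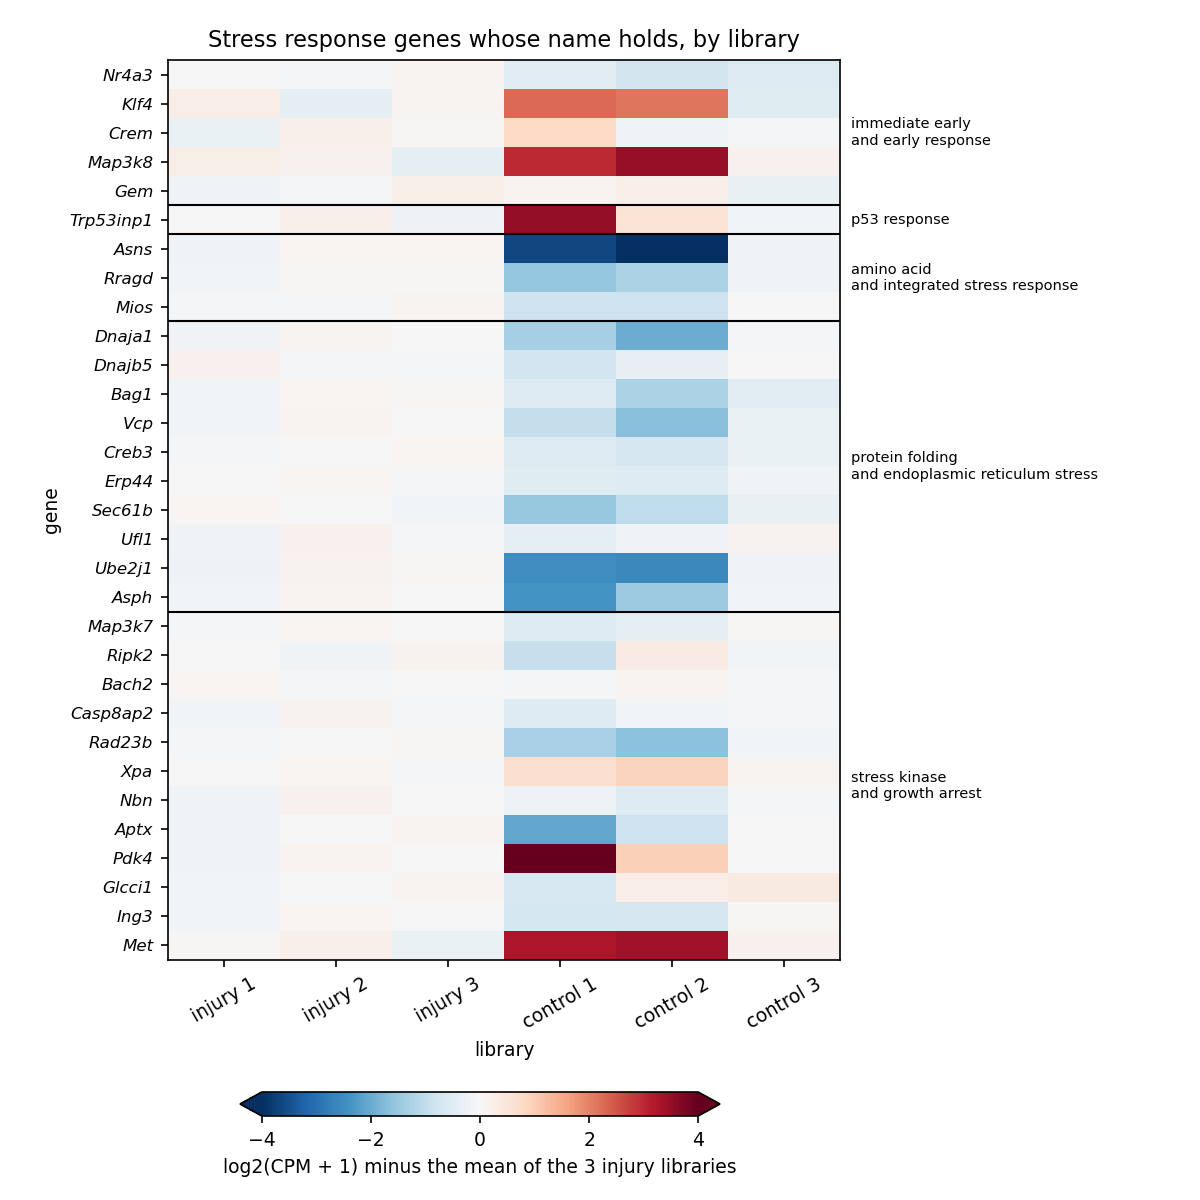
Log2(CPM + 1) of the readable stress response genes, all but 1 of the 32, in each library, minus the mean of the 3 injury libraries, on a colour scale from -4 (blue) to 4 (red), with values beyond it drawn at its ends. The columns of injury 1 to 3 and control 3 are pale throughout, and those of controls 1 and 2 hold the dark cells, among them Klf4, Map3k8 and Met high and Asns and Ube2j1 low.

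The genes most like each member over the 6 libraries were found among 387 name-stable genes with a mean of at least 5 CPM, by the root mean square difference in log2(CPM + 1) centred on each gene's own mean. For Klf4 they were Shb, Ptbp3 and Yap1, at 0.25, 0.32 and 0.33 log2 units, where Klf4 itself spread by 1.13. Yap1, the coactivator of the Hippo pathway, had 125, 123 and 115 CPM after injury, against 423, 355 and 91.8 CPM in controls 1, 2 and 3, with control 3 the lowest library for both genes. For Asns they were Cntfr, a receptor of ciliary neurotrophic factor, Tmod1 and Alg2 (0.23, 0.24 and 0.26, with a spread of 1.79). Alg2, an enzyme of N-linked glycosylation, had 587, 712 and 700 CPM after injury, against 55.2, 63.5 and 547 CPM in the controls.

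Pnrc1 was most like Slc25a51, a carrier of the mitochondrial membrane, at 0.084 log2 units, where Pnrc1 spread by 0.46. Slc25a51 had 442, 432 and 445 CPM after injury, against 896, 323 and 401 CPM in the controls, so it too is highest in control 1. Next came Txn1, the redox protein thioredoxin, and Decr1, an enzyme of fatty acid oxidation, at 0.18 and 0.19. Trp53inp1 had no near neighbour: Ccdc107, Arhgap42 and Aco1 lay at 0.58, 0.59 and 0.62, with a spread of 1.30. Nr4a3 was most like Ndufaf6, Ube2r2 and Nans (0.079, 0.12 and 0.13, with a spread of 0.30), and Gem most like Zfp292, Anp32b and Tspan33 (0.16, 0.17 and 0.17, with a spread of 0.20). All points come from the same 6 libraries and share their totals, and no test was made of these likenesses.

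Among the 6 genes themselves, Nr4a3 and Gem were the closest pair, at 0.37 log2 units, and Klf4 and Asns the farthest apart, at 2.90. The distance of 0.37 is larger than the spread of Nr4a3 (0.30) or of Gem (0.20). It shows that both genes varied little, and not that they share a pattern.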

How the data were processed

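RNA was extracted with Trizol and libraries were made with an Illumina TruSeq kit, per the labels' protocols. The deposited counts were made by the authors with featureCounts 2.0.1, per the file headers, on read pairs with both ends mapped, summed over exons by gene name, with no strand, multi-mapping or overlap option. The submitters' processing notes name Bowtie 0.12.2, mm8 and mm9; the aligner and build behind these counts are not given in the sources used here. The series table repeats the counts with 0 cells differing. Its other columns, deposited under the name FPKM, are described in the closing section and entered no test.

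Each feature's exons were set against GENCODE M21 on GRCm38 by name, without converting coordinates. CPM are counts divided by the library total and multiplied by 1000000. The main test was edgeR 4.0.16 in R 4.3.3 (TMM, default filterByExpr, quasi-likelihood F test, no covariate, Benjamini-Hochberg at 0.05 over all features); standard errors come from the F statistic. The test code was run on simulated counts with 200 changed genes. DESeq2 1.42.0 was an alternative. Same-numbered libraries of the groups did not deviate together (r = 0.0636, -0.137 and 0.0536 over 12646 features). This cannot decide on a pairing, because the control libraries differ widely among themselves. The labels name no pairing, so the replicate number was not taken as one. Chi-square per degree of freedom was 3.55 to 4.76 between injury libraries and 59.4 to 153 between control libraries. All 6 libraries were kept.

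The 6 members and the gene lists were chosen with earlier results of these data known. Named genes are the members, list members that are name-stable with at least 20 counts, and the 3 name-stable genes nearest in pattern to each member, leaving out predicted models, Rik clones and pseudogenes. The values of 1 gene of the protein folding list are not reported here. A muscle list summed to 147 to 194 CPM in the injury libraries, against 46.7, 232 and 156 CPM in controls 1, 2 and 3. A disc and matrix list summed to 52.0 to 74.2 CPM, against 62.4, 1226 and 61.9 CPM in controls 1, 2 and 3. Alternatives were other scalings, filters, DESeq2, the replicate block, the spread of the injury libraries alone and leaving out libraries.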

Additional observations from a re-analysis of the deposited data

How the results depend on the processing

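Over all 6 libraries the count of 0 features called by edgeR held under RLE scaling, library totals, both other filters, the replicate block and scaling on name-stable features (chosen after seeing the data). It was 1503 with DESeq2 (18 higher and 1485 lower), 939 without controls 1 and 2, and 0 to 10231 when single libraries were left out, where only the fit without control 3 called any. With control 3 as the only control, 939 calls became 204 with DESeq2 (200 higher and 4 lower) and 758 to 1992 without single injury libraries, the highest without injury 1. The 146 higher and 793 lower calls became 269 and 773 under RLE, 49 and 879 on library totals, and 26 and 1146 with scaling on name-stable features. Between controls 1 and 2, 7790 features past 2-fold (1073 higher and 6717 lower in control 1) became 3665 where at least 100 counts were asked for, and 2561 higher and 4059 lower with TMM.

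Several 6-library log2 fold changes turned sign, none of them called. Gem was -0.11 on library totals and -0.66 with scaling on name-stable features, and Nr4a3 -0.02 with the latter. Pnrc1 was 0.09 with no filter, 0.04 with the filter of 1 CPM, 0.12 with the replicate block and 0.45 without controls 1 and 2, where Klf4 was 0.68 and Trp53inp1 0.23. Without single libraries Pnrc1 ran from -0.53 to 0.66 and Trp53inp1 from -2.74 to 0.05. The cause was not tested. With control 3 as the only control all 6 genes kept their sign under every alternative run. The replicate block changed no call of the 6 genes; no paired fit was possible with control 3 alone because it shares its number with 1 injury library. At 30 to 77 counts per library outside controls 1 and 2, Klf4, Nr4a3 and Gem cannot show small differences.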

Other observations

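The columns that the authors' series table names FPKM do not hold FPKM in its usual sense. In all 149156 cells with a count above 0 they equal the count divided by the exon length in kilobases and by the square of the library total (in units of 1000000), to within a relative difference of 5.33e-15. The total is thus divided out once more than usual, which raises the libraries of lower total, among them the injury libraries, against controls 1 and 2. In these deposited columns the log2 ratio of the injury mean to the control mean was 0.35 for Gem and 0.17 for Pnrc1, where CPM per kilobase from the counts gave -0.03 and -0.21. For Nr4a3 it was 0.91 in the deposited columns and 0.59 in CPM per kilobase. For Klf4, Trp53inp1 and Asns the sign was the same on both scales, at -1.26, -1.72 and 1.56 in the deposited columns and -1.76, -2.19 and 1.54 in CPM per kilobase.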
